A study of Mus musculus with 2 samples.

Results

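The Mir30 genes encode the miR-30 family of microRNAs, and their counts are described here in the hindbrain of newborn mice. The members were chosen by gene symbol: Mir30a, Mir30b, Mir30c-1, Mir30c-2, Mir30d and Mir30e, 6 of the 1973 microRNA genes counted. The study sequenced small RNA, in a labelled size range below 30 nt, from total RNA of 1 whole hindbrain each of 2 pups of strain B6NCrl at postnatal day 0, called pup 1 and pup 3 in the labels. All samples belong to 1 untreated group, and sex was not collected. No condition was compared, so the data give the level of each member, the makeup of the 3 clusters and the difference between the 2 pups.

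MicroRNAs are cut from hairpin precursors, and a strand from either arm (5p or 3p) guides silencing complexes to messenger RNAs that pair with its seed, bases 2 to 8 counted from the 5′ end. The miR-30 family shares 1 seed on its 5p arm and is known from many tissues. It has been studied in kidney, heart, fat and tumour cells, and in brain miR-30a-5p is known as a repressor of Bdnf, a growth factor of neurons. The genes lie in pairs that are retained across vertebrates.

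RefSeq sequences (GRCm38.p6) were matched for 4 of the 6 members, and they are printed to show what the members have in common and where the sequencing can tell them apart. Capitals mark the seed.
miR-30a-5p: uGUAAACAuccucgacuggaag
miR-30e-5p: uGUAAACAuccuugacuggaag
miR-30c-5p, from both Mir30c-1 and Mir30c-2: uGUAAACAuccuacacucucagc
miR-384-5p, from Mir384, which is outside the list: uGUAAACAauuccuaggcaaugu
All 4 carry the seed GUAAACA. In the RefSeq set, 5 genes did: Mir30a, Mir30c-1, Mir30c-2, Mir30e and Mir384. The 5p arms of miR-30a, miR-30c and miR-30e were identical over the first 12 bases, and that of miR-384 shared only the first 8 with them. Over their 22 bases miR-30a-5p and miR-30e-5p differed by the single substitution C13U, miR-30a being the reference and positions counted from the 5′ end.

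The 3p arms fell into 2 groups by seed, and they are shown because the reads of Mir30c-1 and Mir30c-2 can differ there.
miR-30a-3p: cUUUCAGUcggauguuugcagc
miR-30e-3p: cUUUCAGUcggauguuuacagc
miR-30c-1-3p: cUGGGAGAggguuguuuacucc
miR-30c-2-3p: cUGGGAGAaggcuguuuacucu
The 3p arms of Mir30a and Mir30e differed by G18A, with miR-30a as the reference. Those of Mir30c-1 and Mir30c-2 differed by G9A, U12C and C22U, with miR-30c-1 as the reference. The longest stretch that the precursors of Mir30a and Mir30e share was 18 nt, and neither shared 20 nt, on either strand, with a precursor at another locus among the 1005 in the RefSeq table. Mir30b and Mir30d had no entry there, so stretches shared with them were not searched.

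Mir30c-1 and Mir30c-2 encode the same 23-base miR-30c-5p. Their precursors share 28 nt, marked in capitals, which begin at the first base of the 5p arm and run past its end into the loop.
Mir30c-1: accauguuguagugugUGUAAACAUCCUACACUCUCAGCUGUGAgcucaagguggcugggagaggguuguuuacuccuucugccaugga
Mir30c-2: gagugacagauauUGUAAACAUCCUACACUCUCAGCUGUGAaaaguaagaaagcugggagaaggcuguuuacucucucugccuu
By the layout of the deposited tables, only reads with a single locus enter a gene's count. A read lying within these 28 nt is therefore counted at neither gene. The counts of Mir30c-1 and Mir30c-2 below are those of reads that tell the loci apart, and the amount of miR-30c-5p in the hindbrain was not measured by them. The arm from which the counted reads came is not given in the sources used here.

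**Figure D1:**
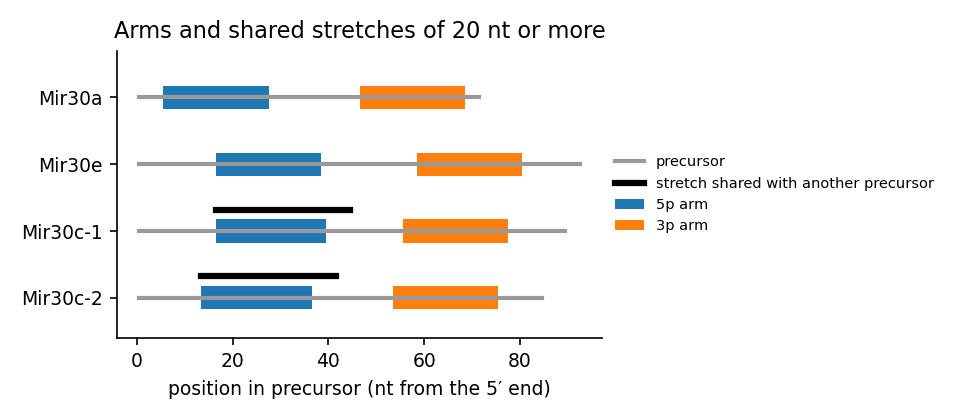
Precursors of the 4 members with a RefSeq sequence, drawn from the 5′ end (horizontal axis, position in nt), with the 5p and 3p arms as coloured boxes and any stretch of 20 nt or more shared with a precursor at another locus as a black bar. The bar covers 28 nt in Mir30c-1 and Mir30c-2, including the whole 5p arm, and Mir30a and Mir30e have none. Mir30b and Mir30d had no sequence here and were not part of the search.

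By GENCODE M21 (mm10) the members lie as 3 pairs, each on 1 strand. Mir30a (chr1:23272269-23272339, plus strand) overlapped no other annotated gene, and Mir30c-2 (chr1:23291701-23291784, plus strand) lies within an exon of the long non-coding RNA Gm27028. There are 19361 bases between them. Mir30e (chr4:120772606-120772697, minus strand) and Mir30c-1 (chr4:120769534-120769622, minus strand) lie 2983 bases apart in introns of Nfyc, on its strand. Nfyc encodes a subunit of the CCAAT-binding factor NF-Y. Mir30d (chr15:68341208-68341289, minus strand) lies in an exon of the long non-coding RNA Gm20732 and overlaps 9 bases of Gm37296. Mir30b (chr15:68337415-68337510, minus strand) overlaps Gm26621 by 16 bases, and 3697 bases separate it from Mir30d. In each pair the gene named first here lies upstream on the shared strand.

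The libraries held 2459757 (pup 1) and 3012320 (pup 3) same-strand counts over all microRNA genes, and levels are given in CPM, counts scaled to 1000000 per library by these totals. All intervals and tests cover the counting error of reads only. Reads without molecular identifiers are not independent molecules, so for molecules the intervals may be too narrow and the p-values too small. The tissue label was checked with microRNAs of known origin. Mir10a and Mir10b, encoded in the Hox clusters and found at the level of the hindbrain and behind it, summed to 56575 CPM in pup 1 and 33740 in pup 3. In the brain list 7 of 11 measured genes had at least 10 CPM in both pups (summed levels 21557 and 26188 CPM). Most of the sum came from Mir137 (11588 and 13229 CPM) and Mir128-1 (5291 and 6622 CPM). Among the genes below 10 CPM was Mir124a-1 (4.88 and 5.64 CPM). Any reads it shares with the other Mir124a genes of the list are not counted. The liver microRNA Mir122 had 41.9 and 45.5 CPM. The striated muscle list summed to 105 and 131 CPM, most of it from Mir206 (98.4 and 125 CPM), with Mir1a-1, Mir133a-1 and Mir133a-2 at 0 counts. Since miR-1a and miR-133a are each encoded at several loci and reads with several loci are not counted, these zeros do not show that muscle microRNA was absent. Endothelial Mir126a stood at 34216 and 36931 CPM. Mir204, abundant in choroid plexus, stood at 4614 and 3550 CPM. The red blood cell microRNAs moved in opposite directions, Mir451a from 134 CPM in pup 1 to 37.5 in pup 3 and Mir144 from 17.1 to 67.1 CPM.

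The 6 members together made up 4.09% of counts in pup 1 and 3.57% in pup 3, or 3.83% ± 0.372 (SD, n = 2, as for every value given with ±). All 6 were above 10 CPM in both pups. By counts they split into 3 abundant genes, Mir30e, Mir30a and Mir30d, and 3 scarce ones, Mir30b, Mir30c-1 and Mir30c-2. These terms describe uniquely placed reads only. Reads within the stretch shared by the Mir30c precursors are left out, so the terms do not give the amount of miR-30c-5p. The abundant genes held 99.2% of the family's counts in each pup, and the scarce genes 0.760% in pup 1 and 0.826% in pup 3.

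Mir30e, the upstream member in Nfyc, had the highest level of the family. It had 53381 counts in pup 1 and 56919 in pup 3, which are 21702 CPM (exact Clopper-Pearson 95% interval 21520 to 21885) and 18895 CPM (18742 to 19050). Its mean of 20299 ± 1984 CPM ranked 10 among all genes in the tables. The intervals of the 2 pups did not overlap, and pup 1 was the higher. Its order against the next gene differed between pups: Mir26b had 16161 CPM in pup 1 and 19682 in pup 3. Mir130a stood above it in both pups, at 24026 and 24038 CPM.

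Mir30a, the upstream member on chromosome 1, had 25073 and 26411 counts in pups 1 and 3, or 10193 CPM (interval 10068 to 10320) and 8768 CPM (8663 to 8874). Its mean was 9480 ± 1008 CPM, at rank 26. Mir322 had 8583 and 10752 CPM and Mir143 had 7422 and 9520 CPM in pups 1 and 3, so that Mir30a was above both in pup 1 and below both in pup 3. Mir30d, the upstream member on chromosome 15, had 21444 and 23211 counts, or 8718 CPM (8602 to 8835) and 7705 CPM (7607 to 7805). Its mean was 8212 ± 716 CPM, at rank 29, between Mir23a at 8245 ± 1122 CPM and Mir411 at 7129 ± 910.5 CPM. Within the pups Mir30d was above both of these genes in pup 1 and below both in pup 3. As for Mir30e, Mir30a and Mir30d were higher in pup 1 than in pup 3.

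The scarce members differed less between pups than their counting intervals. Mir30b, the downstream member on chromosome 15, had 533 counts in pup 1 and 606 in pup 3, or 217 CPM (199 to 236) and 201 CPM (185 to 218). Its mean of 209 ± 11.0 CPM ranked 184, between Mir701 at 214 ± 5.94 CPM and Mir145a at 203 ± 5.01 CPM. In pup 1 Mir30b stood above both of these genes. Mir30c-1, downstream in Nfyc, had 146 and 169 counts, or 59.4 CPM (50.1 to 69.8) and 56.1 CPM (48.0 to 65.2). Its mean of 57.7 ± 2.30 CPM ranked 249. Mir30c-2, downstream on chromosome 1, had 86 and 112 counts, or 34.96 CPM (28.0 to 43.2) and 37.2 CPM (30.6 to 44.7). Its mean of 36.1 ± 1.57 CPM ranked 272. The intervals of the 2 pups overlapped for each of these genes.

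**Figure D2:**
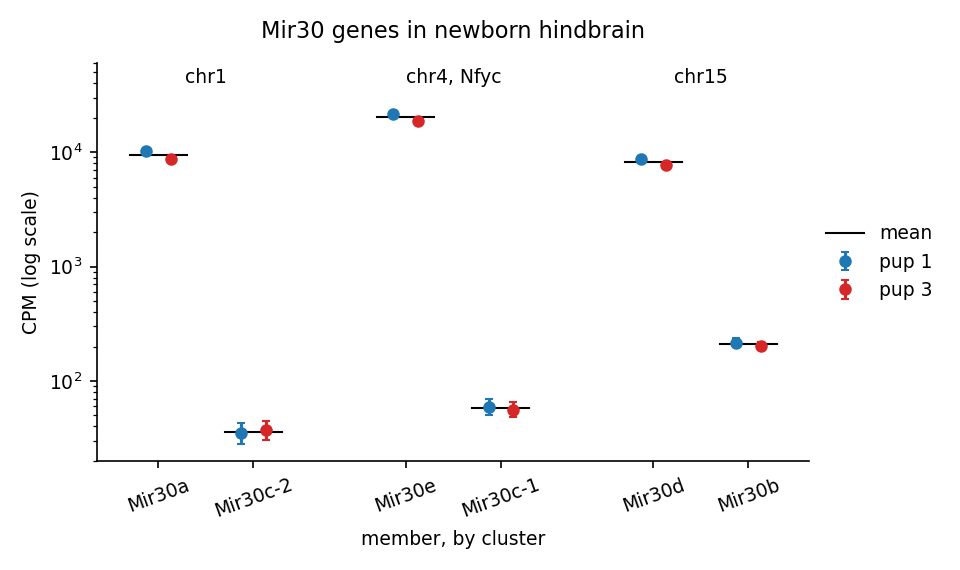
Level of each Mir30 gene in CPM (log scale) in pup 1 (blue) and pup 3 (red), grouped by cluster, with exact 95% counting intervals as bars and the mean of the 2 pups as a line. In each cluster 1 gene lies between 7705 and 21702 CPM and its partner between 34.96 and 217 CPM. Reads within the stretch shared by the Mir30c precursors are not counted.

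The order Mir30e, Mir30a, Mir30d, Mir30b, Mir30c-1, Mir30c-2 was the same in both pups. There were 2.13 counts of Mir30e per count of Mir30a in pup 1 (interval 2.10 to 2.16) and 2.16 in pup 3 (2.12 to 2.19). The closest neighbours were Mir30a and Mir30d. Their means differed by 1269 CPM, against SDs of 1008 and 716, and only 49.7 CPM separated the lower value of Mir30a (pup 3) from the higher value of Mir30d (pup 1). Within a pup they stood apart beyond counting error, with 1.17 counts of Mir30a per count of Mir30d in pup 1 (interval 1.15 to 1.19) and 1.14 in pup 3 (1.12 to 1.16). The means of Mir30c-1 and Mir30c-2 differed by 21.7 CPM, and their intervals did not overlap in either pup. An unpaired permutation test of 2 values against 2 cannot give a two-sided p below 0.333. The levels come from the same 2 pups, and this pairing allows even fewer relabellings, so no such test was made. These levels compare counts of whole precursor genes, with no adjustment for how many reads of each could be placed at a single locus.

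**Figure D3:**
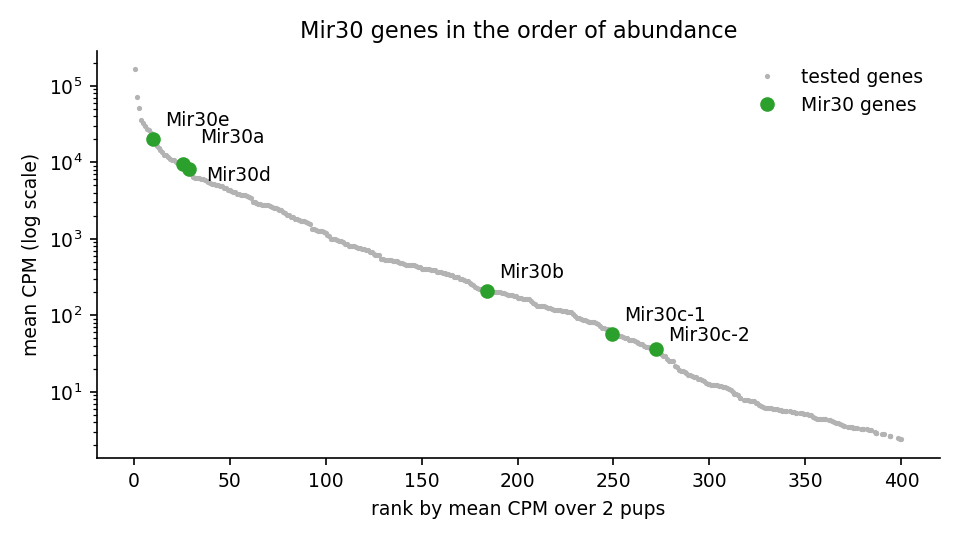
Mean CPM over the 2 pups (log scale) against rank for the 395 genes tested between the pups (grey), with the 6 Mir30 genes in green. Mir30e, Mir30a and Mir30d hold ranks 10, 26 and 29, and Mir30b, Mir30c-1 and Mir30c-2 ranks 184, 249 and 272.

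Of the counted reads, the cluster in Nfyc held more than the other clusters combined. Reads within the stretch shared by the Mir30c precursors are not among them. The clusters in Nfyc and on chromosome 1, and the family total, therefore lack an amount that was not measured. Mir30e and Mir30c-1 made up 53.2% of the family's counts in pup 1 (interval 52.9% to 53.5%) and 53.1% in pup 3 (52.8% to 53.4%). The pair on chromosome 1 held 25.0% (24.7% to 25.3%) and 24.7% (24.4% to 24.9%), and the pair on chromosome 15 held 21.8% (21.6% to 22.1%) and 22.2% (21.9% to 22.4%). The order of the clusters was the same in both pups. None of the 3 shares passed a two-sided Fisher's exact test between the pups. The adjusted p (Benjamini-Hochberg over the 3 clusters, as for the pairs below) was 0.878 for Nfyc, with an odds ratio of pup 3 over pup 1 of 0.999 (95% interval 0.982 to 1.02). It was 0.163 both for chromosome 1, with an odds ratio of 0.984 (0.964 to 1.004), and for chromosome 15, with one of 1.02 (0.999 to 1.04). Such shares do not depend on how the libraries are scaled.

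Within each cluster the upstream gene had far more counts than the downstream gene. There were 40.2 counts of Mir30d per count of Mir30b in pup 1 (interval 36.9 to 43.9) and 38.3 in pup 3 (35.3 to 41.6). Mir30a had 292 counts per count of Mir30c-2 in pup 1 (236 to 365) and 236 in pup 3 (196 to 287), and Mir30e had 366 per count of Mir30c-1 (311 to 433) and 337 (290 to 394). Both ratios with a Mir30c gene count uniquely placed reads only.

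The makeup of the pairs was not distinguishable between pups. Mir30b held 2.43% of its cluster in pup 1 and 2.54% in pup 3 (odds ratio 1.05, interval 0.932 to 1.18, exact Fisher adjusted p = 0.498). Mir30c-1 held 0.273% and 0.296% (odds ratio 1.09, interval 0.864 to 1.36, exact Fisher adjusted p = 0.498), and Mir30c-2 held 0.342% and 0.422% (odds ratio 1.24, interval 0.925 to 1.66, exact Fisher adjusted p = 0.462). At these counts a change of odds of up to 1.66-fold for Mir30c-2 cannot be told from none.

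Between the pups the abundant members were lower in pup 3. Each gene's 2 counts were compared by an exact binomial test given totals scaled by TMM (trimmed mean of M values), two-sided, with Benjamini-Hochberg adjustment over the 395 genes that had at least 10 counts in either library. The test compares 2 libraries beyond counting error, with no replicate on either side. Of all tested genes 46.8% passed at 0.05, 21.3% lower and 25.6% higher in pup 3. Of the 6 members 3 passed, all lower in pup 3: Mir30e, Mir30a and Mir30d. Calls were common at these levels, since in the range of Mir30e, Mir30a and Mir30d, from 5000 CPM upward in both pups, 39 of 39 genes passed (a range chosen with the levels known).

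The folds of the abundant members were close to each other. On the log2 scale, as pup 3 over pup 1, Mir30a had -0.27 (counting interval -0.30 to -0.25, exact binomial adjusted p = 1.08e-98), Mir30e -0.25 (-0.27 to -0.24, adjusted p = 1.25e-183 by the same exact test) and Mir30d -0.23 (-0.26 to -0.20, adjusted p = 7.51e-63 by the same exact test). The scarce members did not pass. Mir30b had -0.16 (-0.33 to 0.01, exact binomial adjusted p = 0.121), Mir30c-1 -0.14 (-0.46 to 0.20, exact adjusted p = 0.586) and Mir30c-2 0.03 (-0.38 to 0.46, exact adjusted p = 0.942). The median fold of the 6 members was -0.20, against 0.02 for all 395 genes. These factors were taken over all genes, a choice made after results with factors from the tested genes alone had been seen. With the latter every fold shifted by -0.075 and Mir30b passed as well, at -0.24 (exact binomial adjusted p = 0.0154). The split of all calls was 84 lower and 101 higher with all genes and 105 lower and 76 higher with the tested genes.

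The folds were set beside the spread between pups. That spread was estimated from these same libraries with the members included, so it is no independent measure and the comparison is not a test. The common biological coefficient of variation over 361 genes was 16.6% (edgeR), equal to an SD of 0.34 for the log2 ratio of 1 pup to another. All 6 members lay within 1 such SD of 0, as did 260 of the 395 tested genes (65.8%). Mir30a was the farthest of the members, at 0.80 SDs below 0. The Hox-encoded pair Mir10a and Mir10b was also lower in pup 3 (summed levels above), and its part in the lower Mir30 values was not tested. In whole tissue, fewer cells that contain a microRNA and less of it per cell cannot be told apart.

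**Figure D4:**
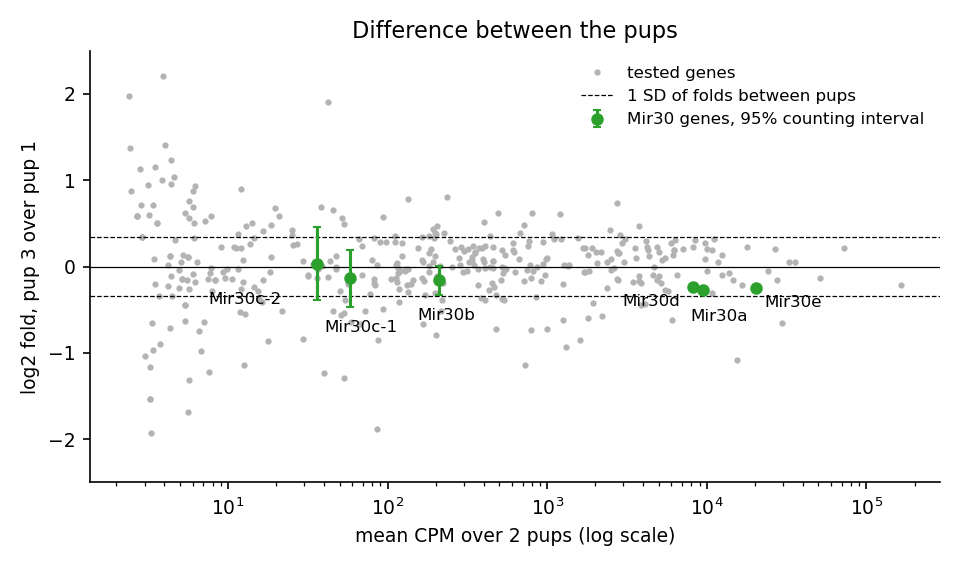
Log2 fold of pup 3 over pup 1 against mean CPM (log scale) for the 395 tested genes (grey) and the Mir30 genes (green, with 95% counting intervals). Dashed lines mark the SD of such ratios on either side of 0 (0.34), estimated from the same libraries. All 6 Mir30 genes lie within these lines, as do 260 of the 395 tested genes (65.8%). Of the Mir30 genes 5 lie below 0, as do 187 of the 395 tested genes (47.3%).

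Other genes with the seed, or on the other strand, were few. Mir384 (chrX:105344282-105344369, minus strand), whose miR-384-5p has the seed of the family, had 1327 counts in pup 1 and 2037 in pup 3, or 539 CPM (511 to 569) and 676 CPM (647 to 706). Its level was 608 ± 96.7 CPM. By uniquely placed reads it stood above the scarce and below the abundant Mir30 genes in both pups. It was higher in pup 3 (log2 fold 0.27, interval 0.17 to 0.37, exact binomial adjusted p = 2.53e-07), opposite in sign to Mir30a, Mir30d and Mir30e. The difference between these folds was not tested, but their counting intervals do not overlap. GENCODE M21 places Mir30f on the strand opposite Mir30e, at the same coordinates. Its RefSeq mature RNA holds GUAAACA from its first base, 1 base earlier than in the family:
miR-30f: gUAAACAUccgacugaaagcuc
The capitals again mark bases 2 to 8. The opposite strand of Mir30e had 0 counts in both pups, a result that is compatible with at most 3 counts (1.22 CPM in pup 1, 0.996 CPM in pup 3). The other Mir30 genes also had 0 counts on the opposite strand.

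Families with copies of 1 mature RNA at different loci, Mir26 and Mir29, are set beside the Mir30 genes. The Mir26 genes lie in hosts of the Ctdsp family of phosphatases, and Mir29 microRNAs are known as repressors of collagen messages. The Mir26 genes summed to 1.80% ± 0.249 of counts and the Mir29 genes to 0.0992% ± 0.0138, against 3.83% ± 0.372 for Mir30. Mir26b, whose mature RNAs have 1 locus, had 17921 ± 2489 CPM. Mir26a-1 and Mir26a-2, which both encode miR-26a-5p, had 11.2 ± 1.499 and 38.7 ± 1.20 CPM. Mir29a and Mir29c had 546 ± 51.5 and 435 ± 87.3 CPM. Mir29b-1 and Mir29b-2, which both encode miR-29b-3p, had 5.705 ± 0.556 and 5.13 ± 0.216 CPM. Among the genes with a sequence used here, those that share a mature RNA with another locus had fewer counts than the others of their family, in both pups and all 3 families. Mir30b and Mir30d, which have none, stood at 209 and 8212 CPM. Mir29c, counted with the others, shares a stretch of 22 nt with the precursor of Mir29b-1. Mir26 and Mir29 were chosen for having copies of 1 mature RNA at different loci. Genes outside the 3 families were not examined for this pattern. Whether the reads left out account for the low counts was not measured.

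**Figure D5:**
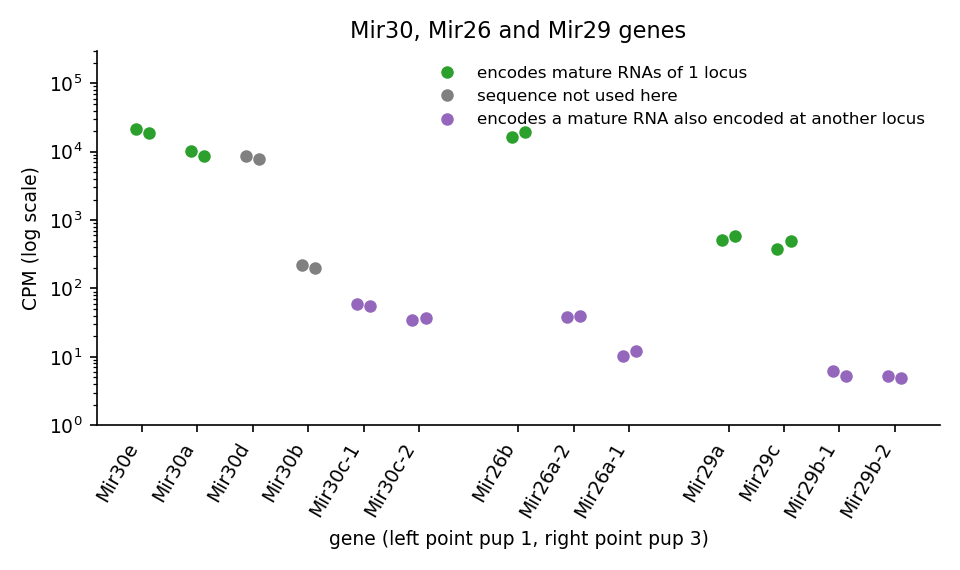
CPM (log scale) of the Mir30, Mir26 and Mir29 genes in pup 1 (left point) and pup 3 (right point), coloured by whether a mature RNA of the gene is also encoded at another locus. The 6 genes that encode a shared mature RNA lie at or below 59.4 CPM, and the 5 with mature RNAs of 1 locus at or above 373 CPM. Mir30b and Mir30d, at means of 209 and 8212 CPM, had no sequence here and are in neither group.

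The summed folds of these families had opposite signs. Pup 3 was lower than pup 1 in the Mir30 sum (log2 fold -0.25, interval -0.26 to -0.24) and higher in the Mir26 sum (0.23, 0.21 to 0.25) and the Mir29 sum (0.23, 0.15 to 0.31). The counting intervals of Mir30 do not overlap those of the other families. The difference was not tested beyond these intervals. Each summed fold was smaller in size than the SD of 0.34 given above for the log2 ratio of a gene between pups. The Mir26 sum is nearly all Mir26b, with 39753 of 39871 counts in pup 1 and 59287 of 59443 in pup 3. Of the Mir26 and Mir29 genes, 3 of 7 passed the exact binomial test with TMM factors from all genes (Mir26b, Mir29a and Mir29c), against 46.8% of all tested genes.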

How the data were processed

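For each library the authors deposited raw read counts per microRNA gene, aligned to mm10 and annotated with GENCODE M4, per the file listings that accompany them. The sources used here do not name the aligner or the adapter trimming. The tables' columns carry no names. Their layout is that of a counter of uniquely mapped reads, and the column of reads on the gene's strand (column 3) was used. Totals exclude 4 summary rows (multimapped, unmapped, ambiguous and featureless reads). Reads mapped to several loci were 40.2% and 42.0% of all reads in pups 1 and 3, and unmapped reads 13.7% and 12.4%. Symbols and coordinates came from GENCODE M21, which matched 1894 of 1973 identifiers and all 6 members. MicroRNA sequences came from RefSeq (GRCm38.p6).

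The libraries were compared with an exact binomial test (scipy 1.17.1) given TMM-scaled totals (edgeR 4.0.16, R 4.3.3), and cluster makeup with Fisher's exact test. The TMM factors were first taken over the tested genes. They were then taken over all genes, after the first results had been seen. Log2 folds add 0.5 to each count. With 1 library a side, edgeR's quasi-likelihood test was not applicable. On data simulated with counting error alone, 377 genes tested, the exact binomial test recovered 79 of 96 genes with 2-fold and 72 of 93 with 1.5-fold differences. It called 4 of 188 without one. The simulated counts hold no spread between animals, so these rates do not carry over to the calls made between the pups. The tables are not copies of 1 library (chi-square of 49286 over 394 degrees of freedom), which says nothing of the spread between animals. Named genes are the members, genes with their seed, the Mir26 and Mir29 families, tissue markers and the genes next to a member by mean CPM. Alternatives were other scalings (plain totals, DESeq2 1.42.0 size factors), count filters, either-strand counts and each pup alone. Members and lists were chosen with earlier results of these data known.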

Additional observations from a re-analysis of the deposited data

Results flagged for a closer look

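Reads mapped to several loci, which no count above uses, made up 41.1% ± 1.29 (SD, n = 2) of all reads, or 2337021 reads in pup 1 and 3015969 in pup 3. The Mir30 genes had 100663 and 107428 counts. How many of the reads left out came from Mir30c-1 and Mir30c-2, whose precursors share 28 nt, was not measured.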

How the results depend on the processing

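Of 96 values recomputed under an alternative, some could not change their reading. With 2 pups, the 20 that leave out a pup always lie within 1 SD of the mean, and 9 shares are identical with either-strand counts because the members have no opposite-strand counts. Of the other 67, 64 kept their direction and their side of the threshold, or moved by less than 1 SD between the pups. With all reads as the denominator, unmapped and multimapped reads included, the family held 1.61% in place of 3.83%, as the larger denominator makes it. With TMM factors from the tested genes, which were used first and replaced by factors over all genes after results had been seen, Mir30c-2 changed sign (log2 fold -0.041, exact binomial adjusted p = 0.931) and Mir30b passed (-0.24, adjusted p = 0.0154, exact binomial test). Under the other settings 3 members passed, Mir30b did not, and the folds of Mir30a, Mir30d and Mir30e ranged from -0.29 to -0.18. Each pup alone gave a family share of 3.57% or 4.09%. Counts were lowest for the Mir30c genes, at 86 to 169, and these leave out reads within the stretch that the Mir30c precursors share.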
